A study of Mus musculus with 3 samples.

Results

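The genes of VEGF, angiopoietin and apelin signalling described here are 10 in number, of 22954 genes in the tables: the ligands Vegfa, Angpt1 and Apln, the VEGF receptors Kdr, Flt1 and Flt4 with their co-receptor Nrp1, the angiopoietin receptor Tek with its partner Tie1, and the apelin receptor Aplnr. They were taken as a list and followed through every cell class of 3 lung single cell libraries. Each library came from 1 female wild-type (WT) C57BL6/J mouse, a young adult at irradiation, whose thorax had received 13 Gy and whose lungs were collected 5 months later, so all groups share the irradiation and the strain, and the non-irradiated control libraries were not analysed here. CONV was irradiated at the conventional dose rate, FLASH at the ultra-high dose rate, and CONV AsiDNA at the conventional dose rate after AsiDNA, a short DNA molecule that mimics double-strand breaks, which was injected at 100 mg/kg on each of 2 days before and at 200 mg/kg on the day of irradiation. Each condition is thus a single mouse without a replicate, nothing is tested and no p-value is given, and a difference between libraries cannot be told apart from a difference between mice.

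VEGF-A is secreted mainly by epithelium and signals through VEGFR2 (Kdr) on endothelium, while VEGFR1 (Flt1) binds it tightly and limits how much reaches VEGFR2, and VEGFR3 (Flt4) is the receptor for VEGF-C and VEGF-D on lymphatic vessels. Angiopoietin-1, a product of mesenchymal cells, keeps vessels quiescent through the receptor TIE2 (Tek) and its orphan partner TIE1. Apelin and its G protein-coupled receptor act between endothelial cells, and in the mouse alveolus the ligand is known from aerocytes, the large capillary cells of gas exchange (aCap), and the receptor from general capillary cells (gCap), which act as their progenitors.

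Undoing the natural log of the deposited values gives whole numbers, called adjusted counts here. A level is the sum of a gene in a class per 1000000 adjusted counts summed there (adjusted CPM). Shares of cells above 0 carry the exact Clopper-Pearson 95% interval, which covers the sampling of cells only. Of the 19622 cells, 19619 were kept and 18813 (95.9%) fell into a class by their markers, none of which is a member of the list. CONV, CONV AsiDNA and FLASH gave 122, 156 and 162 gCap, 56, 165 and 180 aCap, 131, 96 and 102 large vessel cells, and 108, 68 and 117 alveolar type 1 (AT1) cells. Of the 9 endothelial markers of the gate, 8 were above 0 in 84.4% or more of gCap, 74.4% or more of aCap and 80.9% or more of large vessel cells in each library. The remaining one, the junction gene Cldn5, was above 0 in every aCap, in 77.0%, 93.6% and 98.8% of gCap and in 53.4%, 71.9% and 89.2% of large vessel cells. The libraries shared 9 to 17 cell barcodes pairwise. The median adjusted count per cell ran from 3450 to 3678, by an adjustment not given in the sources used here, and mt-Co1, a transcript that every cell uses, was listed at 0 throughout 6, 6 and 2 of the classes in CONV, CONV AsiDNA and FLASH. A gene at 0 is therefore only said to be listed at 0.

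The members were concentrated in few classes. Among the 20 classes with at least 20 cells in every library, 8 of the 10 genes were highest in an endothelial class in all libraries, while Vegfa was highest in AT1 and Angpt1 in alveolar fibroblasts. The class with the highest level was the same in all 3 libraries for 8 genes, and for Flt1 and Aplnr it was the large vessel class in CONV and CONV AsiDNA and gCap in FLASH. B cells served as a class that should lack these genes. In the 1344, 1601 and 1157 B cells, 1 cell was above 0 for Tek in CONV, 1 for Flt4 in CONV AsiDNA, and none of the other combinations had a cell above 0.

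**Figure D1:**
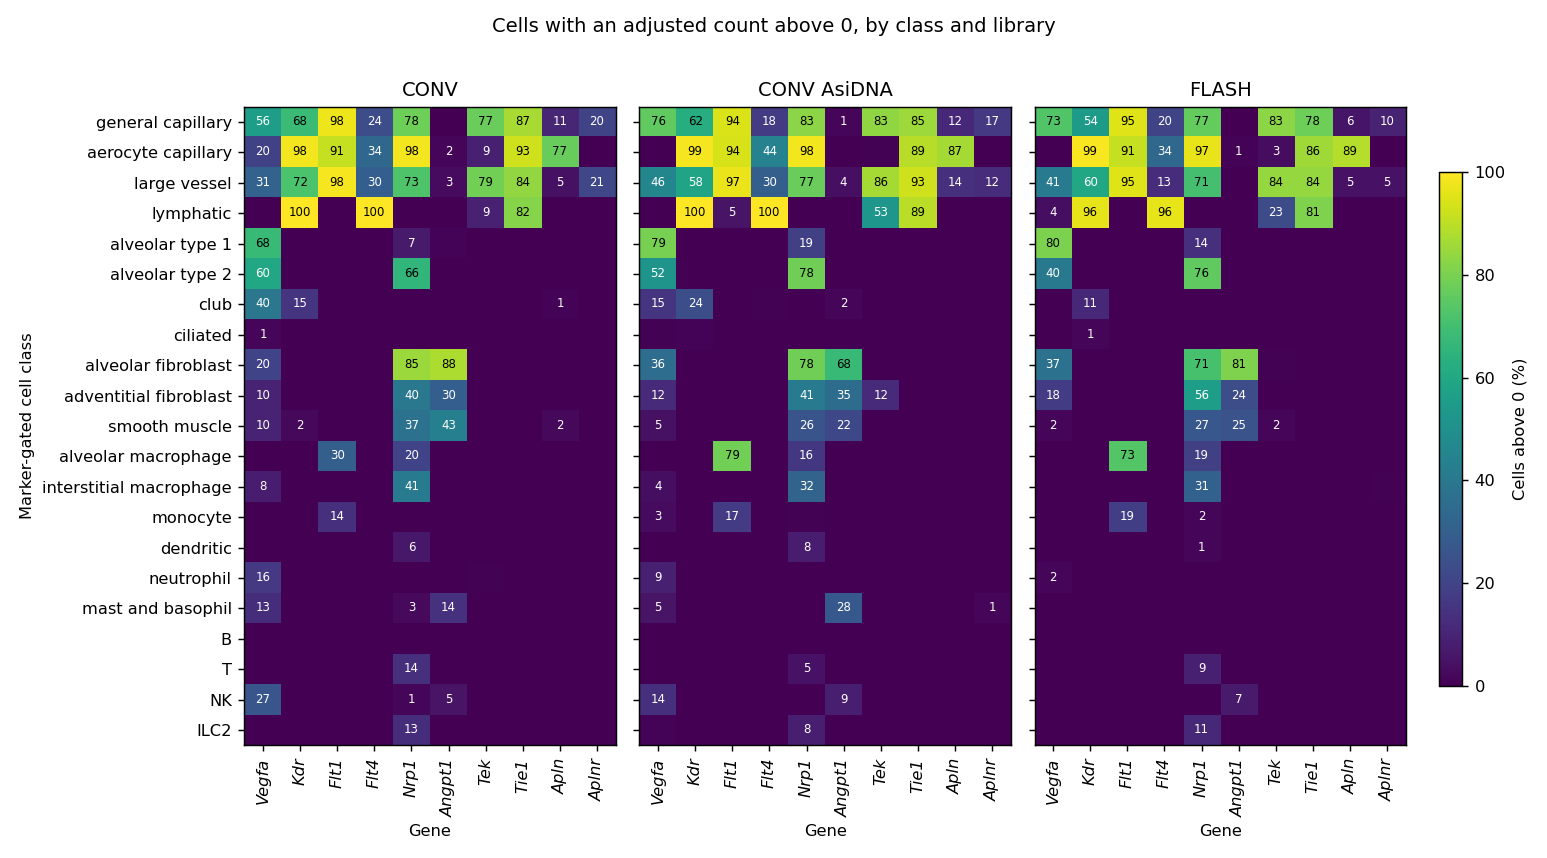
Share of cells with an adjusted count above 0 (colour and number, in %; shares under 1% are left without a number) for the 10 genes (columns) in the marker-gated cell classes (rows), 1 panel per library of 1 mouse. Kdr, Flt1, Nrp1 and Tie1 fill the vascular endothelial rows in each panel, Vegfa and Nrp1 also mark the alveolar epithelium, and Flt1 in alveolar macrophages was at 30.4%, 78.8% and 73.4% from the left panel to the right.

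Vegfa, the ligand of the family, lies on chromosome 17 (46016993 to 46032369, minus strand, GRCm38). In AT1 cells, the flat cells that cover most of the alveolar surface, it reached 1418 adjusted CPM in CONV, against 4880 in CONV AsiDNA and 4701 in FLASH. CONV stood apart below both others, which were close to each other. The log2 ratio on adjusted CPM plus 10 was -1.78 for CONV over CONV AsiDNA, -1.72 for CONV over FLASH and 0.05 for CONV AsiDNA over FLASH. The difference lay in how much Vegfa a cell held more than in how many cells held it. Cells above 0 were 67.6% (57.9 to 76.3), 79.4% (67.9 to 88.3) and 80.3% (72.0 to 87.1), with overlapping intervals. The median adjusted count per AT1 cell was 2, 16 and 11, and the upper quartile 5.25, 25.2 and 23. Cells with 10 or more made up 14.8%, 58.8% and 53.8%.

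The AT1 cells of CONV were also lower than both others in 7 of the 8 markers that gated them, among them Ager, the receptor RAGE, at 10506, 16520 and 16417 adjusted CPM, and Hopx, a homeodomain protein of AT1 cells, at 4097, 8563 and 8685. Akap5, the remaining marker, was at 1383, 1196 and 1660. Their median adjusted count was 2401, against 2837 and 2773. Vegfa was therefore also read in cells matched by their number of markers, a split chosen after the data were seen. With 6 to 8 markers above 0 it was 1720, 5789 and 5330 adjusted CPM in 67, 45 and 82 cells. With all 8 above 0 it was 2526, 5929 and 5778 in 25, 33 and 57 cells, and in cells with 3 to 5 markers it was 748, 1864 and 1824. CONV was the lowest of the libraries at each number of markers.

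Markers of AT2 cells also differed between the AT1 cells of the libraries. Of 8 AT2 markers 7 were above 0 in some CONV AT1 cell, 2 in CONV AsiDNA and 1 in FLASH, and their summed level was 1212, 46.9 and 85.5 adjusted CPM. Napsa, the protease napsin A, was at 493, 4.69 and 0, and above 0 in 31.5% and 1.47% of the CONV and CONV AsiDNA cells. Sftpb, a surfactant protein, was at 277 in CONV and listed at 0 in the others, while Sftpc, another one, was at 64.5, 42.2 and 85.5. In the 51, 58 and 88 AT1 cells with all 8 AT2 markers at 0, an alternative added after the data were seen, Vegfa was at 2016, 5320 and 5322 adjusted CPM, and the log2 ratio of CONV was -1.40 over each other library. The part of the AT1 and AT2 markers in the Vegfa difference beyond these values was not tested.

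**Figure D2:**
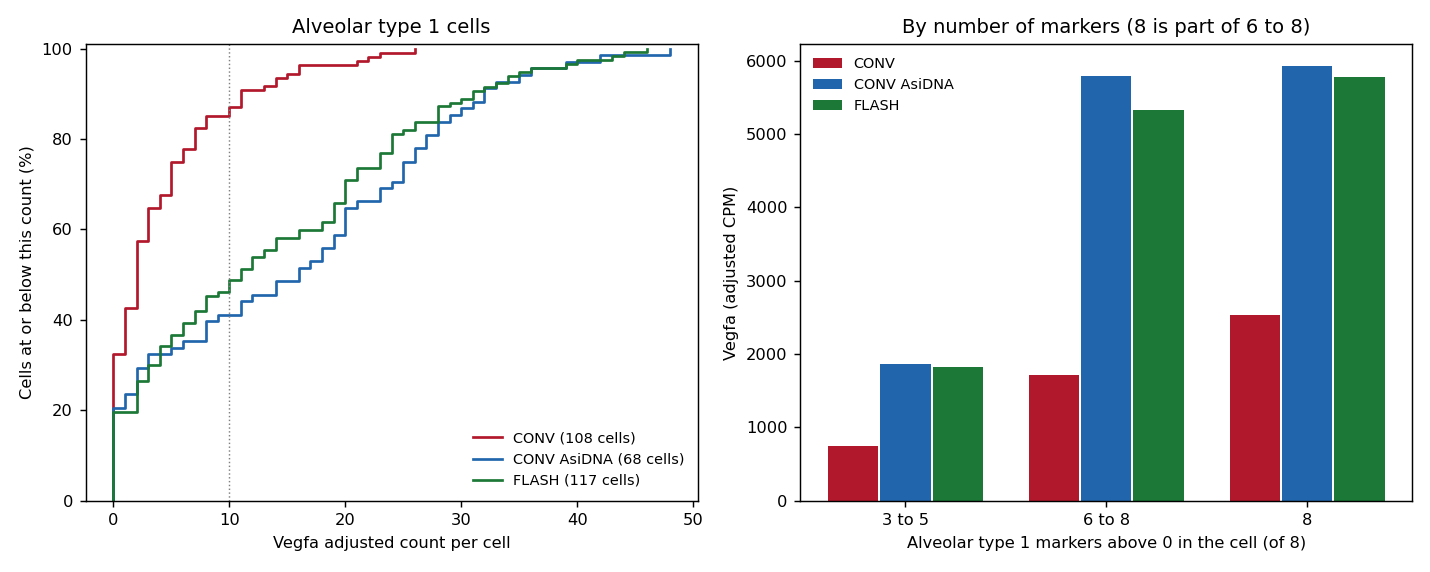
Vegfa in AT1 cells. Left, cumulative share of cells (y, in %) at or below an adjusted count (x), 1 line per library, with a dotted line at 10; right, adjusted CPM (y) by the number of AT1 markers above 0 in the cell (x), 1 bar per library of 1 mouse with no error bar. The CONV line rises earlier than the others, with a median of 2 against 16 and 11, and the CONV bar is the lowest in each group.

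AT1 cells were 1.70%, 0.974% and 1.87% of the cells kept, yet held 32.0%, 47.8% and 64.4% of all Vegfa adjusted counts of their library. Alveolar type 2 (AT2) cells, the surfactant producers, held 20.8%, 13.3% and 8.40%. Their Vegfa level was 202, 184 and 114 adjusted CPM in the order CONV, CONV AsiDNA and FLASH, so that CONV, the lowest library in AT1, was the highest here, and cells above 0 were 59.9%, 51.7% and 40.3%. Endothelial cells held 24.0%, 24.7% and 19.4%. The endothelial Vegfa was in gCap, with 436, 646 and 614 adjusted CPM, and in arterial cells, with 256, 878 and 692 in 45, 31 and 29 cells. Venous cells had 116, 131 and 118. In aCap 11 of the 56 CONV cells were above 0, at 72.3 adjusted CPM, and Vegfa was listed at 0 in every aCap of CONV AsiDNA and FLASH. Markers of gCap moved with this. Of 6 gCap markers 4 were above 0 in some CONV aCap and 2 in the other libraries, at a summed 2291, 789 and 776 adjusted CPM. Gpihbp1, the lipase anchor of gCap, was at 719, 114 and 78.4 in aCap, and Cxcl12, a chemokine, was at 588 in CONV and listed at 0 in the others. The aCap markers Fibin, at 627, 1681 and 1941, and Ednrb, at 699, 1587 and 1680, were lowest in CONV, as were Car4 and Rprml. The aCap markers Tbx2, at 834, 854 and 869, and Chst1, at 559, 542 and 579, differed little. Among the 24 CONV aCap with Gpihbp1 and Cxcl12 at 0, an alternative added after the data were seen, 1 was above 0 for Vegfa, and the part of the gCap markers in the difference beyond this was not tested. Zeros over a whole class were frequent for this gene. It was listed at 0 in 6, 5 and 12 of the 20 classes, and in FLASH those include club and interstitial macrophage classes that had cells above 0 in the other libraries.

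Kdr, which encodes VEGFR2, the main signalling receptor, lies on chromosome 5 (75932827 to 75978458, minus strand). It was highest in aCap at 2807, 3313 and 3791 adjusted CPM, with 98.2% to 98.9% of cells above 0. In gCap it was 591, 427 and 350, and in large vessel cells 523, 366 and 351. The levels in gCap and large vessel cells lay close together and below aCap in each library, and with all gated cells the order of the libraries in aCap was the reverse of that in the other classes. Without a cluster made up mostly of CONV cells, described further on, the large vessel levels were 217, 325 and 351, which is the order of aCap, and gCap kept its order at 461, 378 and 350. Lymphatic endothelium had 1044, 1345 and 1182, in 11, 19 and 26 cells, a class under the minimum of 20 cells that is given after its values were seen. Outside endothelium Kdr appeared in club cells, secretory cells of the airway, at 39.6, 58.5 and 23.5 adjusted CPM with 15.4%, 24.0% and 11.4% of cells above 0. It was at 752 and 1164 in the 32 and 28 mesothelial cells of CONV AsiDNA and FLASH, and CONV had 4 such cells.

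Flt1, the gene of VEGFR1, lies on the same chromosome (147561604 to 147726011, minus strand). It had 1909, 1419 and 1562 adjusted CPM in gCap, 2149, 1567 and 1474 in large vessel cells and 984, 1125 and 1242 in aCap. Its share of cells above 0 was 91.1% or more in each of these classes and libraries. The balance of both receptors differed between capillary classes, since Kdr was higher in aCap than in gCap and Flt1 lower, in all 3 libraries. Per cell, Flt1 without Kdr was seen in 38 of 122, 54 of 156 and 68 of 162 gCap, and in 1, 0 and 0 aCap. In lymphatic cells Flt1 was listed at 0 in CONV and FLASH and was above 0 in 1 of 19 cells in CONV AsiDNA.

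Tie1 and Tek encode the receptors of the angiopoietin arm. Tie1 (chromosome 4, 118471191 to 118490061, minus strand) was found at similar levels in all vascular classes, with 714, 666 and 548 adjusted CPM in gCap, 502, 579 and 539 in aCap and 589, 548 and 510 in large vessel cells. Tek (chromosome 4, 94739289 to 94874976, plus strand) had 504, 576 and 604 in gCap and 503, 474 and 515 in large vessel cells. In aCap it was at 28.9, 1.60 and 10.5 adjusted CPM, with 5 of 56, 1 of 165 and 6 of 180 cells above 0. The intervals of these shares, 2.96 to 19.6, 0.0153 to 3.33 and 1.23 to 7.11%, lay far under those of gCap, the lowest of which began at 68.6%. In the 24, 135 and 145 aCap with Gpihbp1 and Cxcl12 at 0, Tek was above 0 in 0, 1 and 3. Tie1 was above 0 in 85.6% to 92.9% of all aCap. Low values of a gene in this class stand beside mt-Co1, which was listed at 0 in every aCap of the 3 libraries. Both genes together were above 0 in 82, 115 and 111 gCap and in 5, 1 and 6 aCap.

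The promoters of Kdr, Flt1 and Tie1 are shown as examples of members above 0 in every vascular endothelial class. Nrp1, Flt4, Tek and Apln were above 0 in cells of each of these classes too, and their match counts are given after the sequences. ETS factors, whose binding core is GGAA, are known to act on endothelial genes. The sequences are from RefSeq (GRCm38.p6), 250 bases before to 50 after the start, 5′ to 3′ on the strand of the gene, with GGAA on either strand (printed as GGAA or TTCC) in capitals.
Kdr, chr5:75978406-75978705 (minus strand): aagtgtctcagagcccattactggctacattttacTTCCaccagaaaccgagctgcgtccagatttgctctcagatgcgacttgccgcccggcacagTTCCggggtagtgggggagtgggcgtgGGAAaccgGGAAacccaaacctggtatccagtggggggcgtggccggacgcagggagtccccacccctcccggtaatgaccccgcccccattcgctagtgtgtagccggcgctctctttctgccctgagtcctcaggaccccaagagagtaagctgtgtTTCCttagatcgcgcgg
Flt1, chr5:147725962-147726261 (minus strand): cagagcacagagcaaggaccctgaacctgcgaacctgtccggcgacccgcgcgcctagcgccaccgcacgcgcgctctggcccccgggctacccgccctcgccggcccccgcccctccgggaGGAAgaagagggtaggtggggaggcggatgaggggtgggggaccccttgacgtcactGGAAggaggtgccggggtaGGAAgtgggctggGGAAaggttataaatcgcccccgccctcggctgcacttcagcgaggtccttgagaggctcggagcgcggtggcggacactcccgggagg
Tie1, chr4:118489800-118490099 (minus strand): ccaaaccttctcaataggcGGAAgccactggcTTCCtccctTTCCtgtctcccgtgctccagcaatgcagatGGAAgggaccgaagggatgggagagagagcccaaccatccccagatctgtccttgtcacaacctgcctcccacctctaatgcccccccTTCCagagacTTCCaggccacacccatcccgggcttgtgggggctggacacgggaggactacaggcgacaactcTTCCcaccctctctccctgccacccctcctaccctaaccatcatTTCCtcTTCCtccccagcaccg
Kdr held 5 matches, Flt1 4 and Tie1 9. Of 32851 promoters of this length, 96.0% held at least 1 match and the median was 3. At least as many matches as in Kdr were in 28.6% of promoters, as in Flt1 in 46.3%, and as in Tie1 in 1.59%. For Tie1 the annotations disagree on the start. GENCODE has it at 118490061, which lies within the 250 bases before the RefSeq start, so most of this window is inside the GENCODE gene. The other promoters matched were those of Tek and Flt4 with 2 each, Nrp1 with 5, Apln with 4 and Vegfa with 6, for 8 members in all. ACGTG, the core of the hypoxia response element, was searched on both strands and is in none of these 8 windows, while 19.6% of all promoters hold it. A match describes letters and is no binding site.

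Nrp1, the co-receptor neuropilin-1 (chromosome 8, 128358604 to 128503363, plus strand), was the member with the widest distribution. It had 2445, 2532 and 2782 adjusted CPM in aCap, 709, 780 and 602 in gCap and 441, 561 and 419 in large vessel cells. Like Kdr it was several times higher in aCap than in the other classes of each library, and it was listed at 0 in all lymphatic cells. Alveolar fibroblasts had 507, 435 and 375, AT2 cells 220, 293 and 277, and interstitial macrophages 144, 132 and 120. T cells, some of which carry neuropilin-1 as a regulatory marker, had 65.9, 22.8 and 41.7 with 13.7%, 4.71% and 8.65% of cells above 0. In AT1 cells it was low, at 41.9, 93.8 and 56.0.

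Flt4 (chromosome 11, 49609263 to 49652739, plus strand) encodes VEGFR3, which drives lymphatic growth. It was at 2380, 2836 and 2266 adjusted CPM in the lymphatic cells, and above 0 in 11 of 11, 19 of 19 and 25 of 26 of them. The blood vessel classes had low levels, of 94.3, 66.7 and 76.6 in gCap and 106, 138 and 113 in aCap. Cells above 0 in aCap were 33.9%, 44.2% and 33.9%. In large vessel cells the levels were 96.2, 92.2 and 34.3, where FLASH was the lowest and its share of 12.7% (6.96 to 20.8) lay under the interval of both others (22.1 to 38.4 and 21.3 to 40.4). Without the mostly CONV cluster, described further on, the levels were 73.8, 97.6 and 34.3, and the CONV share was 25.4% of 59 cells. No interval is given for this smaller set, so the separation of the intervals is stated for all gated cells only. The venous markers Slc6a2 (956, 1086 and 2186), Prss23, Vcam1, Amigo2, Bst1 and Vwf were highest in FLASH in this class, and Nr2f2 (473, 323 and 238) was lowest there. Their part in the Flt4 difference was not tested.

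**Figure D3:**
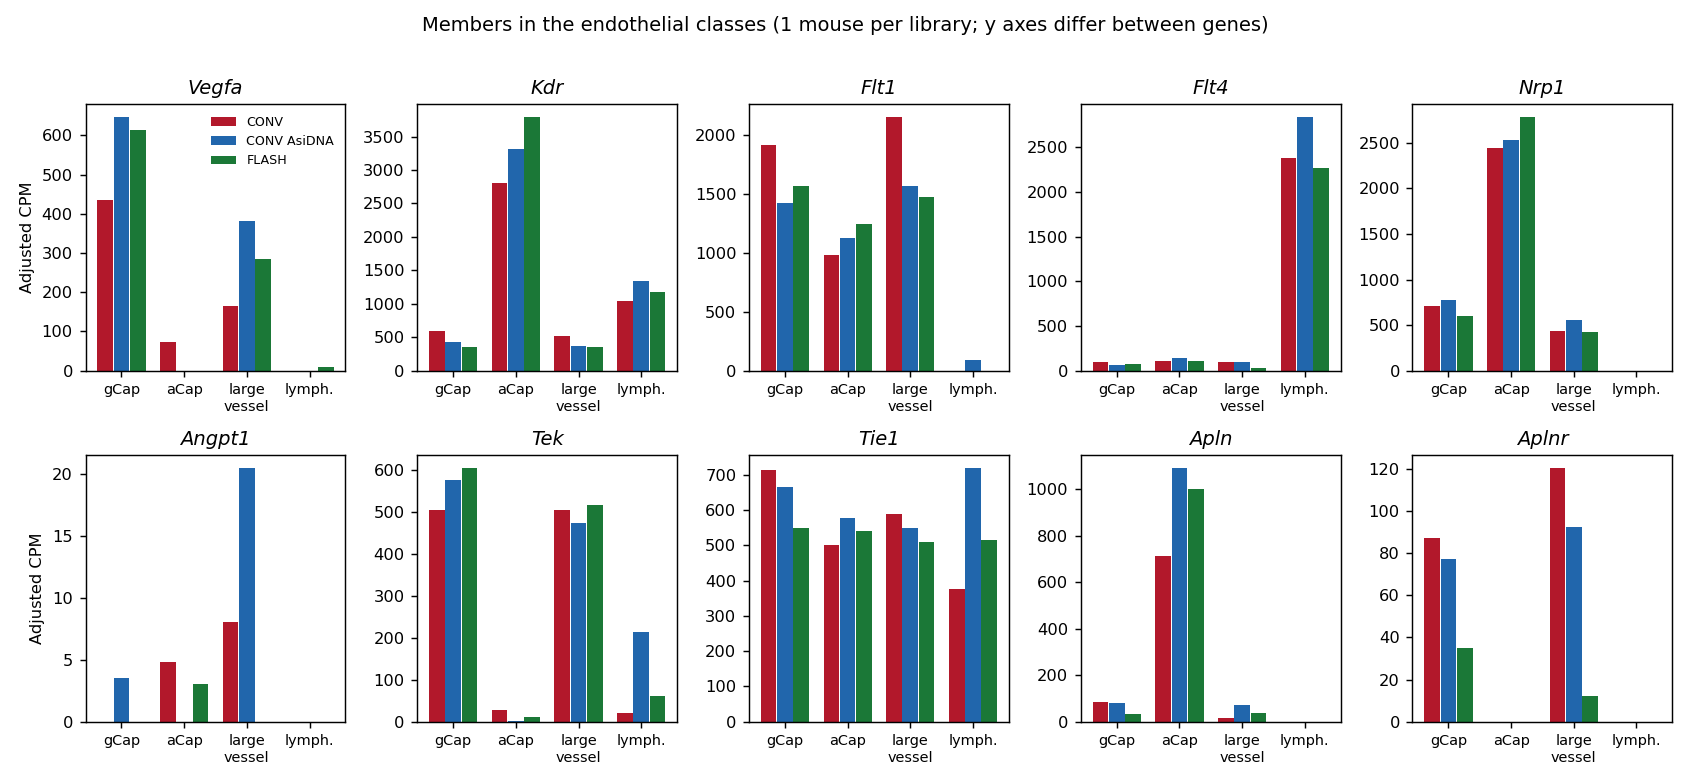
Adjusted CPM (y axis from 0, own scale per gene) of the 10 genes in gCap, aCap, large vessel and lymphatic cells (x), 1 bar per library of 1 mouse with no error bar; the lymphatic bars rest on 11, 19 and 26 cells. Kdr, Nrp1 and Apln are highest in aCap in each library, Tek has 10.5 or less in aCap of CONV AsiDNA and FLASH, Aplnr is listed at 0 in every aCap, and Flt4 is at 2266 or more in lymphatic cells.

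Angpt1 (chromosome 15, 42424723 to 42676977, minus strand), the activating ligand of TIE2, was highest in mesenchymal classes, with alveolar fibroblasts first in each library. Alveolar fibroblasts had 616, 379 and 590 adjusted CPM, in 40, 78 and 134 cells, with 87.5%, 67.9% and 80.6% above 0. Smooth muscle had 237, 61.4 and 68.8, with shares of 43.1% (29.3 to 57.8), 21.5% (12.3 to 33.5) and 25.5% (14.7 to 39.0). In alveolar fibroblasts CONV AsiDNA was the lowest library, and in smooth muscle CONV was the highest, though its interval overlapped those of the others. Adventitial fibroblasts, the cells around large vessels and airways, had 79.8, 129 and 65.3. Blood cells held it as well. NK cells had 26.6, 44.8 and 27.8, and the mast cell and basophil class 54.3 and 190 in CONV and CONV AsiDNA, with 16 of 113 and 21 of 76 cells above 0, while its 26 FLASH cells were listed at 0. In CONV AsiDNA the mast cell and basophil level was thus above those of smooth muscle and adventitial fibroblasts. Fibroblasts held 55.5%, 54.5% and 89.4% of all Angpt1 adjusted counts of the libraries, smooth muscle 22.7%, 5.78% and 3.99%, NK cells 2.84%, 14.8% and 5.05%, and the mast cell and basophil class 9.005%, 18.4% and 0%.

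Apln (chromosome X, 48025146 to 48034853, minus strand) and Aplnr (chromosome 2, 85136225 to 85139923, plus strand) encode the apelin ligand and its receptor. Apln in aCap was 714, 1092 and 1004 adjusted CPM, with 76.8% (63.6 to 87.0), 86.7% (80.5 to 91.5) and 88.9% (83.4 to 93.1) of cells above 0. Aplnr was listed at 0 in all 56, 165 and 180 aCap, the class in which mt-Co1 was also listed at 0. It was above 0 in 25, 26 and 16 gCap and in 28, 12 and 5 large vessel cells. In gCap, 5 of the 13, 6 of the 18 and 2 of the 9 cells above 0 for Apln were also above 0 for Aplnr, against 25 of 122, 26 of 156 and 16 of 162 of all gCap. Over all endothelial cells 63, 164 and 174 had Apln alone, 53, 28 and 19 had Aplnr alone, and 11, 10 and 3 had both. With all gated cells the libraries stood in the same order for Aplnr in gCap, with 87.2, 77.3 and 34.8 adjusted CPM, and in large vessel cells, with 120, 92.2 and 12.3. Within the large vessels it was higher in venous cells, at 153, 135 and 17.3, than in arterial cells, at 58.1, 7.63 and 0, where 4 of 45, 1 of 31 and 0 of 29 cells were above 0. Outside the mostly CONV cluster, described further on, 4 of 59 and 4 of 85 large vessel cells of CONV and CONV AsiDNA were above 0 for Aplnr. The venous and arterial values of these libraries thus rest in part on cells whose class is unsure. The share of Aplnr cells in the large vessel class was 21.4% (14.7 to 29.4) in CONV and 4.90% (1.61 to 11.1) in FLASH, and these intervals lay apart. That of CONV AsiDNA, 12.5% (6.63 to 20.8), overlapped both. Neither the order in gCap nor the separation in large vessel cells held without the mostly CONV cluster. The gCap levels were then 36.6, 59.3 and 34.8, and the large vessel shares 6.78% (1.88 to 16.5), 4.71% (1.30 to 11.6) and 4.90%, which overlapped.

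Between libraries, a gene was called when its level differed 2-fold or more in either direction, among genes whose adjusted counts in the class summed to 20 or more. In aCap 6 of the 10 members passed the minimum sum and none was called for any pair of libraries, while 12.7% of all genes tested were called for CONV over CONV AsiDNA, 12.7% for CONV over FLASH and 3.77% for CONV AsiDNA over FLASH. The largest ratio of a passed member there was -0.61 for Apln, lower in CONV than in CONV AsiDNA. With Leiden clusters as classes, in 68, 169 and 181 aCap, 2 members were called for CONV over each other library. They were Vegfa, at 125 adjusted CPM in CONV and listed at 0 in the others, and Tek, at 46.9, 1.56 and 10.5, the genes given above beside the gCap markers in CONV aCap. In gCap 9 members passed. None was called for CONV over CONV AsiDNA (8.11% of all genes), and with Leiden clusters 1 was, Apln at -1.36. For CONV over FLASH 2 were (9.56%), Apln at 1.14 and Aplnr at 1.12, and for CONV AsiDNA over FLASH 1 was (3.17%), Apln at 1.08. These counts are within 1 or 2 genes of what the background share gives. Some gCap markers differed between the gCap of the libraries as well. Cxcl12 was at 4501, 1299 and 635 adjusted CPM, Sema3c at 1551, 2327 and 2144, and Lpl was listed at 0 in CONV and at 116 and 224 in the others. Gpihbp1, Kit and Hmcn1 differed less. The part of these markers in the ratios was not tested. The Apln values rest on 13, 18 and 9 cells above 0, and without the 6% of cells with the most genes the CONV over FLASH ratio of Apln was 0.42. With Leiden clusters as classes it reversed to -0.56 and Aplnr was at 0.20. No member was then called in gCap for that pair, nor for CONV AsiDNA over FLASH. The Leiden gCap class was a cluster of 163, 243 and 276 cells. Only 59.2% of its gated cells were gCap, so its values are those of a mixture of classes.

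In large vessel cells 9 members passed. For CONV over CONV AsiDNA 2 were called (12.0% of all genes), Vegfa at -1.17 and Apln at -1.77. For CONV over FLASH 3 were called (13.4%), Aplnr at 2.55, Flt4 at 1.26 and Apln at -1.03, and for CONV AsiDNA over FLASH 2 (5.54%), Aplnr at 2.20 and Flt4 at 1.20. The Apln call for CONV over FLASH was lost without the 6% of cells with the most genes. In AT1 cells only Vegfa and Nrp1 passed. Both were called for CONV over CONV AsiDNA (19.1% of all genes), Nrp1 at -1.0003, Vegfa alone for CONV over FLASH (18.4%), and neither for CONV AsiDNA over FLASH (13.6%). Nrp1 was at the threshold, and its call was lost in 3 of the alternatives. The receptors Kdr, Flt1, Tek and Tie1 were not called in any vascular class in which they passed the minimum sum. Tek did not pass it in aCap, and with Leiden clusters as classes it was called there, as given above. Comparisons that share a library are not independent of each other.

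A cluster of endothelial cells stood apart by library, and it touches several of these ratios. Of its 157 cells, CONV gave 133, CONV AsiDNA 23 and FLASH 1. It took 22.1% of the CONV gCap and 55.0% of the CONV large vessel cells, and its leading genes were Rgcc, Rsad2 and Il6. Its markers go against the large vessel label of part of its cells. In its CONV cells Vwf, the large vessel marker for von Willebrand factor, was at 690 adjusted CPM and above 0 in 34.6%. This compares with 7688 and 100% in the other large vessel cells of CONV and 1251 and 53.7% in its other gCap. Gpihbp1 in the cluster was at 1029 and above 0 in 69.9%, against 456 and 37.3% in the other large vessel cells and 2027 and 90.5% in the other gCap. Other genes set the cluster apart from both classes. The gCap marker Cxcl12 was at 1290, under the other gCap (5061) and the other large vessel cells (1863). Ntrk2 was also under both, at 2.08 against 833 and 117. Plvap, at 1450 against 543 and 1064, and Col15a1, at 247 against 61.0 and 13.0, were above both. The large vessel ratios of CONV therefore rest in part on cells whose class is unsure. In its CONV cells Aplnr was at 210 adjusted CPM and above 0 in 36.8% (28.6 to 45.6), against 36.6 and 26.1 adjusted CPM in the other gCap and large vessel cells of CONV. Kdr was at 908, against 461 and 217. Vegfa was at 24.9, against 556 and 326. Most of the CONV Aplnr was thus in these cells, and little of the Vegfa. The cluster was not confined to CONV, as it took 11.5% of the large vessel cells and 5.13% of the gCap of CONV AsiDNA, but it holds almost no FLASH cells. Whether it is a cell state or a trait of these libraries cannot be told apart, since each library is 1 mouse.

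Without the cluster, an alternative added after the data were seen, the CONV over FLASH ratio of Aplnr was 0.06 in gCap and 0.70 in large vessel cells, where its sum no longer passed the minimum. For CONV AsiDNA over FLASH the large vessel ratio of Aplnr went from 2.20 to 0.57 and its call was lost as well, and for CONV over CONV AsiDNA the gCap ratio turned from 0.16 to -0.57. Vegfa in large vessel cells went from -1.17 to -0.37 for CONV over CONV AsiDNA. Kdr in large vessel cells turned from 0.50 to -0.56 for CONV over CONV AsiDNA and from 0.56 to -0.67 for CONV over FLASH. Vegfa for CONV over FLASH turned from -0.76 to 0.19 and Tek from -0.03 to 0.42 in the same class. Apln kept its direction and its call in large vessel cells, at -1.78 and -1.10, though its CONV level there was 13.0 adjusted CPM, with 3.39% of 59 cells above 0. Flt4 in large vessel cells was 0.92 for CONV over FLASH and 1.28 for CONV AsiDNA over FLASH.

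**Figure D4:**
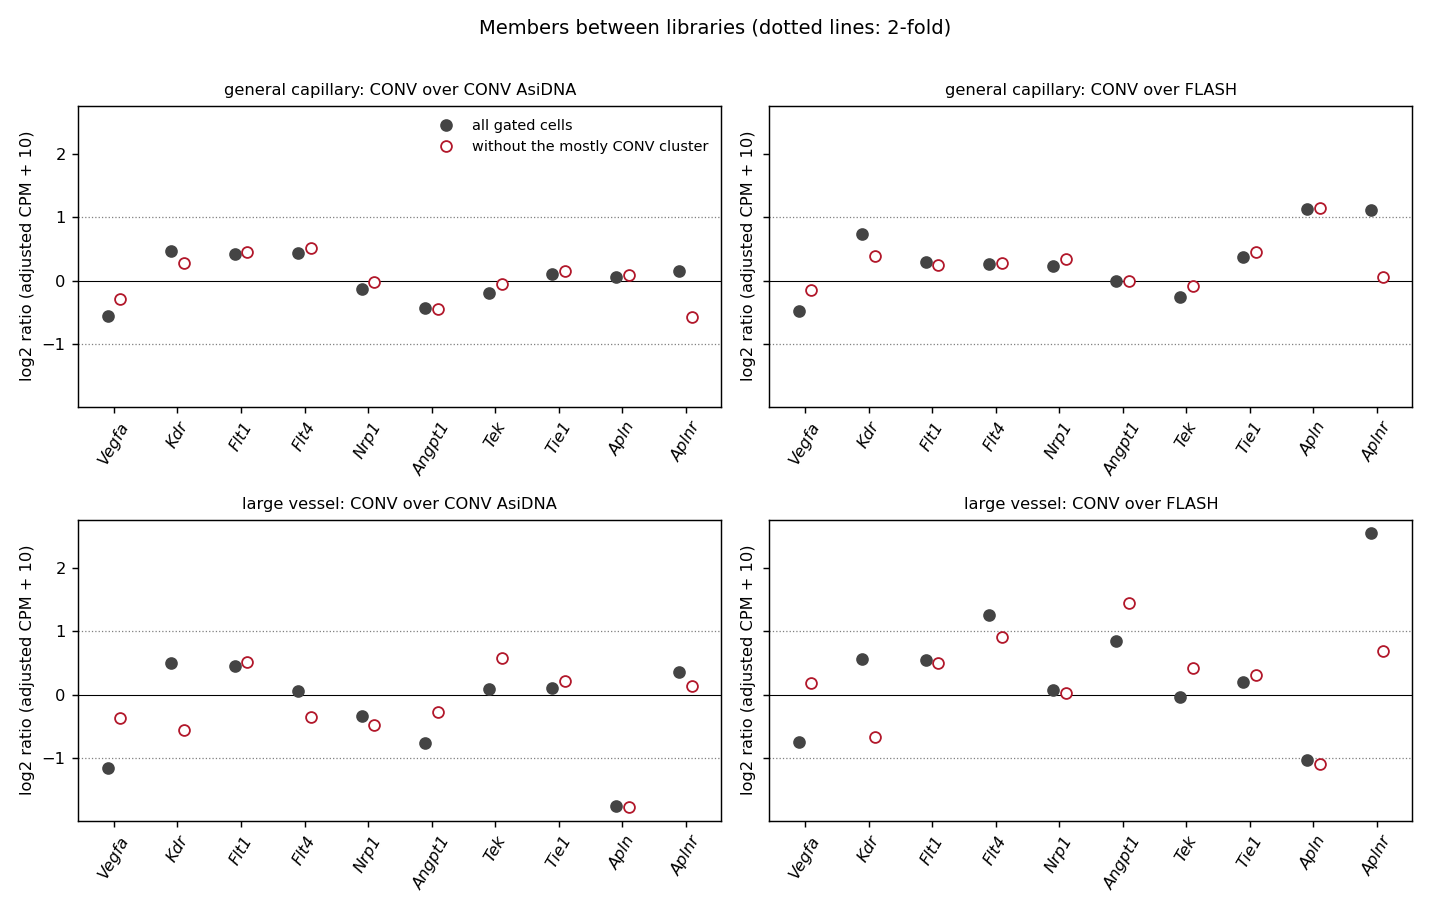
Log2 ratio of adjusted CPM plus 10 (y) of the 10 genes (x) for CONV over each other library in gCap and large vessel cells, with 1 mouse per library, for all gated cells (filled) and without the cluster made up mostly of CONV cells (open); dotted lines mark 2-fold. Aplnr for CONV over FLASH moved from 1.12 to 0.06 in gCap and from 2.55 to 0.70 in large vessel cells, and Kdr in large vessel cells changed sign; genes under the minimum sum, such as Angpt1, are drawn but were not called.

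Outside endothelium Flt1 had a second site. In alveolar macrophages, the scavengers of the air space, it was at 85.9 adjusted CPM in CONV, against 359 in CONV AsiDNA and 351 in FLASH. Cells above 0 were 30.4% (27.5 to 33.3) of 998, 78.8% (75.5 to 81.9) of 661 and 73.4% (69.2 to 77.3) of 481. The CONV interval lay far under both others. The adjusted counts of the cells above 0 had a median of 1, 2 and 2 and a highest value of 5, 7 and 7. With each cell thinned to 1000 adjusted counts the shares were 8.72% (7.04 to 10.6), 30.7% (27.2 to 34.4) and 27.7% (23.7 to 31.9). Kdr, Tek and Tie1, receptors that mark endothelium, were listed at 0 in every alveolar macrophage of the 3 libraries. No B cell was above 0 for Flt1. Monocytes had 63.9, 67.8 and 86.0 adjusted CPM, with shares of 13.8% (6.15 to 25.4), 17.2% (13.3 to 21.8) and 18.6% (14.97 to 22.6), which overlapped.

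The alveolar macrophages differed between the libraries in their markers. Cells above 0 for Spp1 or Gpnmb, genes of lipid-laden and profibrotic macrophages, but not for Ear1 or Krt79, genes of resident alveolar macrophages, were 36.5%, 17.5% and 8.52% of the class. Flt1 was therefore read within marker groups, a split made after the data were seen. In cells with Ear1 or Krt79 only it was above 0 in 28.1% (13.7 to 46.7), 95.6% (90.1 to 98.6) and 77.8% (65.5 to 87.3). In cells with Spp1 or Gpnmb only it was above 0 in 21.2% (17.1 to 25.7), 66.4% (57.0 to 74.9) and 53.7% (37.4 to 69.3). In cells with both kinds of marker it was above 0 in 36.8% (32.8 to 40.9), 77.7% (73.4 to 81.6) and 74.6% (69.9 to 78.9). CONV was under both others, with intervals apart, in each of these groups. The few cells with neither kind of marker, 37, 14 and 3, were above 0 in 24.3% (11.8 to 41.2), 78.6% (49.2 to 95.3) and 100% (29.2 to 100). There the intervals of CONV and FLASH overlapped.

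The alveolar macrophages of the libraries also lay in different Leiden clusters. Cluster 3 held 80.5%, 13.9% and 13.1% of the class in CONV, CONV AsiDNA and FLASH, and cluster 8 held 3.01%, 67.2% and 67.6%. Within clusters, a split added after the data were seen, CONV had the lowest share in each, with overlaps. In cluster 3 Flt1 was above 0 in 27.4% (24.3 to 30.6) of 803, 53.3% (42.6 to 63.7) of 92 and 36.5% (24.7 to 49.6) of 63 cells, where the intervals of CONV and FLASH overlapped. In cluster 8 it was above 0 in 40.0% (22.7 to 59.4) of 30, 88.1% (84.7 to 90.9) of 444 and 84.3% (79.9 to 88.1) of 325 cells, with CONV apart from both. In cluster 20 it was above 0 in 46.4% (38.3 to 54.6), 65.1% (55.2 to 74.1) and 62.0% (50.4 to 72.7), where CONV was again the lowest and its interval overlapped that of FLASH. The small cluster 39 had 0 of 12, 12 of 19 and 7 of 14 cells above 0.

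**Figure D5:**
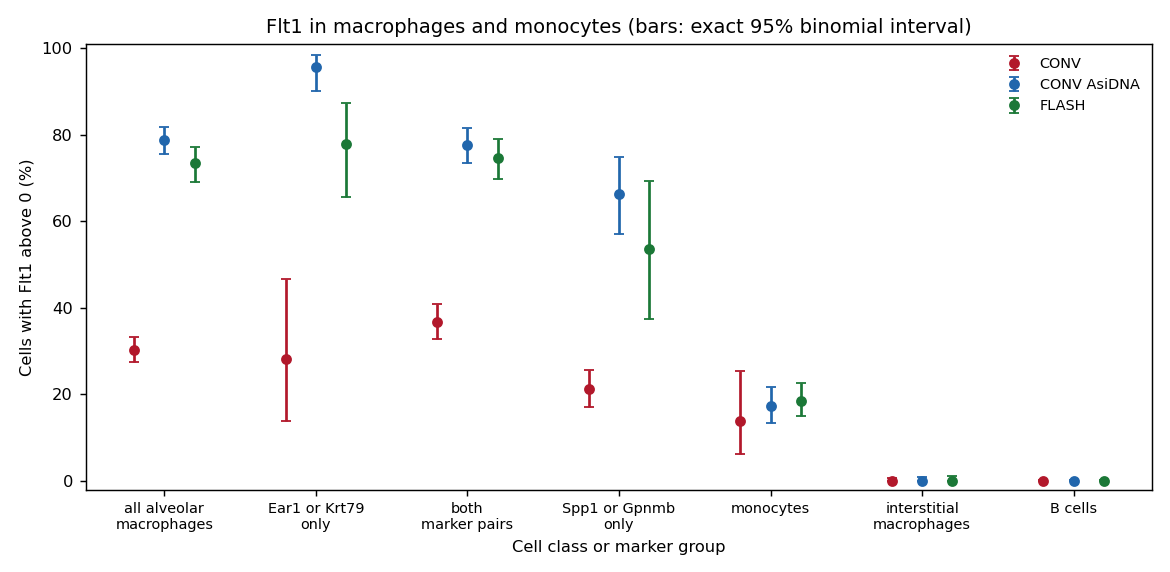
Share of cells with Flt1 above 0 (y, in %) in alveolar macrophages, in their marker groups, and in monocytes, interstitial macrophages and B cells (x), 1 point per library of 1 mouse with its exact 95% binomial interval, which covers the sampling of cells only. The CONV points lie under both others for alveolar macrophages and each marker group, and those of monocytes overlap.

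The other genes of these pathways were taken as a list of 11 ligands and receptors and a list of 15 signalling and target genes. For CONV over CONV AsiDNA, the called among those that passed were 1 higher of 5 ligands and receptors and 1 higher and 1 lower of 13 signalling genes in gCap, 1 higher of 3 and 1 higher and 1 lower of 8 in aCap, and 0 of 4 and 2 higher of 14 in large vessel cells, against the shares of all genes given above. For CONV over FLASH they were 1 higher of 5 and 1 higher of 13 in gCap, 2 higher of 3 and 1 higher and 1 lower of 8 in aCap, and 0 of 4 and 2 higher and 2 lower of 14 in large vessel cells. For CONV AsiDNA over FLASH none of either list was called in gCap or large vessel cells, and 1 of 3 ligands and receptors was higher in aCap. In AT1 cells, CONV over each other library gave 1 lower of 3 ligands and receptors and 2 higher of 7 signalling genes, and CONV AsiDNA over FLASH 0 of 3 and 2 higher of 7. Hif1a, the oxygen-regulated transcription factor, was at 193, 86.0 and 64.4 adjusted CPM in gCap and at 121, 24.0 and 39.2 in aCap, so that CONV was the highest in both. Dll4, the Notch ligand that VEGF induces in tip cells, was at 77.8, 179 and 165 in gCap and at 77.2, 186 and 182 in aCap, with CONV the lowest. Nrp2, the co-receptor that pairs with VEGFR3, was at 144, 26.3 and 10.4 in gCap, and Angpt2, the context-dependent antagonist of Angpt1, at 67.5, 17.6 and 12.1 in aCap. The aCap of CONV also held more of the gCap markers, as given above, and their part in these aCap values was not tested. The Nrp2 and Hif1a levels of the mostly CONV cluster were 324 and 318, against 104 and 168 in the other gCap of CONV. The counts above are for all gated cells, and the higher large vessel calls of Hif1a and Pdgfb in CONV rest in part on this cluster, as given under the other observations.

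The genes whose pattern over the 20 classes was most like that of a member were found by Pearson's r of the mean log2 level over the libraries, among 14711 genes. They were Ndst1, Agrn and Nckap5 for Vegfa (0.83 to 0.84), Prrt4, Ephb1 and Cyp1a1 for Kdr, Scarb1, Calcrl and Tmeff1 for Flt1, Ramp2, Cldn5 and Cdh5 for Flt4, and Eva1b, Chst14 and Ptprg for Nrp1. For Angpt1 they were Ednra, Nox4 and Kcns3, for Tek Fam181b, Gpr182 and Sema3g, for Tie1 Shank3, Arhgef15 and Egfl7, for Apln Mest, Bdkrb2 and Ido1, and for Aplnr Plvap, Gpr182 and Kcnh1. The classes share libraries, and several of these genes are markers of the endothelial gate (Ramp2, Cldn5, Cdh5, Calcrl and Egfl7), so the values only describe this table. With a prior of 1 in place of 10, 12 of the 30 genes remained, and with Spearman's rho 0 did.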

How the data were processed

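Lung cells of 3 mice, 1 each for CONV, CONV AsiDNA and FLASH, were measured by droplet single cell RNA sequencing with 10x Genomics 3′ chemistry. The authors deposited 1 table per library, with values on a natural log scale after adding 1. The submitters' processing notes name Cell Ranger 6.0.0 and mm10, and the study's methods name R with the Seurat package. Filters on cells and the adjustment behind the narrow totals per cell were not given in those sources. A further 4 tables (12 columns of per-sample values, and the authors' own fold changes and p-values) belong to no sample of these libraries and were not used.

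Values were converted back to whole numbers (largest deviation 3.0e-11) and called adjusted counts. Summed adjusted counts were 23908890, 26417388 and 23383510. No count model was used. The cells kept had 200 or more genes above 0 and up to 20% mitochondrial counts. A cell entered the class with the highest share of markers above 0, if at least 3 were. For doublets, 82 cells with at least 3 markers of a second lineage at 0.5 or more of the first share were left out, and 671 cells had no class. Endothelial cells and fibroblasts were split by subtype lists, with at least 2 markers. Log2 ratios used adjusted CPM plus 10, which understates changes of low genes. The members and lists were chosen with earlier results of these data known. Named are the 10 members, list genes called in the same class for 2 or more pairs of libraries or with at least 50 adjusted CPM in an endothelial class, and the 3 genes most like each member. Leiden clusters (resolution 2, 2000 variable genes, 30 components, 15 neighbours, 40 clusters) were an alternative. Gene positions are from GENCODE on GRCm38, the build named as mm10. The work used Python 3.11.15, numpy 2.4.6, scipy 1.17.1, pandas 2.3.3, matplotlib 3.10.9, leidenalg 0.10.2, igraph 0.11.9 and scikit-learn 1.9.0, and the ratio step was tested on simulated data.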

Additional observations from a re-analysis of the deposited data

Results flagged for a closer look

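Between endothelial classes, some members moved in opposite directions in CONV against both other libraries. The differences between classes were not tested, as each library is 1 mouse. The values are the log2 ratio of CONV over whichever other library lay nearer. Kdr was at 0.46 in gCap and 0.50 in large vessel cells, and at -0.24 in aCap. Flt1 was at 0.29 and 0.45 in the same classes, and at -0.19 in aCap. Flt4 was at 0.27 and 0.056, against -0.084 in aCap. Tie1 was at 0.10 in both, against -0.10 in aCap. Tek was at 0.92 in aCap and at -0.19 in gCap. The aCap value rests on 12 cells above 0 in all, and its sum did not pass the minimum. Apln was at 0.063 in gCap, against -0.49 in aCap and -1.03 in large vessel cells. With Leiden clusters as classes Apln in gCap was negative against both other libraries, as given in the report, and so had the sign of those aCap and large vessel values. Only 59.2% of the gated cells of that Leiden class were gCap, so this sign is not that of gCap alone. In the aCap with Gpihbp1 and Cxcl12 at 0, an alternative also chosen after the data were seen, most of these opposite values shrank or turned. The ratio against CONV AsiDNA and against FLASH was there -0.0032 and -0.19 for Kdr, -0.056 and -0.27 for Flt1, 0.45 and 0.55 for Flt4, 0.036 and 0.11 for Tie1, and -0.26 and -0.65 for Tek. Apln stayed negative, at -0.76 and -0.69. Without the mostly CONV cluster, an alternative chosen after the data were seen, the large vessel values of Kdr turned negative, as given in the report. Flt4 in large vessel cells went from 0.056 to -0.36 for CONV over CONV AsiDNA. In large vessel cells Kdr is then no longer opposite to aCap, and Flt4 is so against FLASH only, at 0.92. In gCap both genes stayed positive against CONV AsiDNA and FLASH, Kdr at 0.28 and 0.39 and Flt4 at 0.52 and 0.27.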

How the results depend on the processing

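Of 285 values of the main comparisons under the alternatives, 256 kept their direction and their side of 2-fold, or stayed within 1.5 times for a count. With Leiden clusters as classes, the members called in gCap were 1 for CONV over CONV AsiDNA, 0 for CONV over FLASH and 0 for CONV AsiDNA over FLASH, and in aCap 2 for CONV over each other library, Apln in gCap reversed to -0.56 for CONV over FLASH and was 0.80 for CONV AsiDNA over FLASH, and Aplnr was 0.20. The Leiden gCap class was a mixture of classes, as given in the report. Weighting cells equally gave 1 call in gCap for CONV over FLASH, with Apln at 0.88. Without the 6% of cells with the most genes, gCap had 1 call for CONV over FLASH with Apln at 0.42, Apln in large vessel cells was -0.94, and AT1 had 1 call for CONV over CONV AsiDNA with Nrp1 at -0.97. AT1 also had 1 call with at least 500 genes per cell (Nrp1 -0.83) and with median ratio scaling (Nrp1 -0.98). The Apln and Nrp1 values given for these alternatives lie within 2-fold and are calls that were lost. A prior of 1 gave 2 calls in gCap for CONV AsiDNA over FLASH. Without the mostly CONV cluster, calls were 1 in gCap for CONV over FLASH (Aplnr 0.058) and 1 for each pair in large vessel cells (Vegfa -0.37 for CONV over CONV AsiDNA, Flt4 0.92 for CONV over FLASH). The lists of most similar genes shared 0 of 30 with Spearman's rho and 12 with a prior of 1. The causes were not tested. The Vegfa calls in AT1 kept their direction and call under each alternative run. Of 480 shares of cells above 0, 30 left their interval, and 67 of 69 did when cells were thinned to 1000 adjusted counts, which lowers every share. No paired analysis was possible because each group has 1 mouse, and no mouse could be left out. Low genes such as Apln in gCap rest on few cells, and zeros may come from the adjustment of the values.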

Other observations

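Further genes of the pathways were recorded by class. Ptprb, the phosphatase VE-PTP that restrains TIE2, was at 2540, 2753 and 3464 adjusted CPM in gCap and at 3354, 4287 and 4626 in large vessel cells of CONV, CONV AsiDNA and FLASH. In aCap it was at 38.6 in CONV and listed at 0 in the others, the class in which mt-Co1 was listed at 0 as well. The CONV value rests on 5.36% of 56 aCap, which also held more of the gCap markers, as given in the report. Pdgfb, the growth factor that recruits pericytes, was at 1538, 1354 and 1208 in aCap, 759, 565 and 536 in gCap and 463, 382 and 211 in large vessel cells. With all gated cells CONV was the highest in each. In the CONV cells of the mostly CONV cluster Pdgfb was at 923. The other CONV cells had 662 in gCap and 174 in large vessel cells, the latter under the 211 of FLASH. Epas1, the gene of HIF-2α, was at 3260, 1978 and 2022 in aCap and at 2781, 2991 and 3492 in gCap, and in AT1 it was at 74.1 in CONV and listed at 0 in the others. Vegfc, the lymphatic ligand, was at 172, 111 and 110 in gCap and at 237, 174 and 302 in large vessel cells.

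Esm1, a secreted target of VEGF, was at 66.2, 5.12 and 0 adjusted CPM in large vessel cells, and in the CONV cells of the mostly CONV cluster at 123. Nrp2 in AT1 cells was listed at 0 in CONV and at 61.0 and 53.1 in CONV AsiDNA and FLASH, while Sema3a, a ligand of Nrp1, was there at 206, 366 and 419. In aCap Sema3a was at 28.9, 24.0 and 1.51. Hif1a in large vessel cells was at 223, 105 and 118, and in AT1 at 70.9, 46.9 and 17.7. In the large vessel cells of CONV outside the mostly CONV cluster Hif1a was at 126. Klf2, induced by flow, was at 1799, 1697 and 2752 in aCap, 2785, 1809 and 2560 in gCap and 3920, 2594 and 3527 in large vessel cells. Of the other list genes with at least 50 adjusted CPM in an endothelial class, Nos3 (139, 104 and 92.2) and Plxnd1 (181, 211 and 158) in gCap were higher in large vessel cells, at 207, 307 and 338 and at 347, 271 and 221. Nfatc1 was at 68.3, 126 and 127 in gCap and at 76.2, 125 and 179 in large vessel cells, and Rcan1, a target of NFAT, at 44.8, 80.8 and 64.4 and at 251, 382 and 429. Foxo1, Plcg1, Egln1 and Robo4 in gCap were at 94.3, 98.3 and 134, at 123, 132 and 125, at 94.3, 63.2 and 81.8 and at 247, 286 and 251. Shb in large vessel cells was at 16.04, 28.2 and 54.0.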
